A study of Mus musculus with 9 samples.

Results

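The 10 acyl-CoA thioesterase genes Acot1, Acot2, Acot3, Acot4, Acot5, Acot8, Acot9, Acot11, Acot12 and Acot13 were chosen by symbol, and all 10 were found among the 55416 gene identifiers of the count table. The RNA came from interscapular brown adipose tissue (BAT) of C57BL/6J mice 8 to 10 weeks of age that expressed Cas9. An AAV8 vector was injected into the tissue, carrying a control sgRNA in 5 samples (AAV8-Control sgRNA) or a sgRNA against Ucp1 in 4 (AAV8-UCP1 sgRNA), and RNA was taken after 14 days at 22 °C. Ucp1 encodes the uncoupling protein through which brown adipocytes release heat, so the study asks what loss of Ucp1 in adult brown fat does to the transcriptome. The Cas9 came with the animals in both groups, and whether its expression was limited to a cell type is not stated in the labels.

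The 9 columns of the table are headed by a number and the letters BAT, and 0 of them names a guide or a replicate. They are therefore described here as 9 BAT libraries, lettered A to H and J in the order of those numbers, and no library was given to a guide. Every range below spans both guides, and the effect of the Ucp1 guide cannot be told apart from other differences between animals. The labels also do not state whether the samples are separate animals.

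Acyl-CoA thioesterases hydrolyse acyl-CoA esters to the free fatty acid and coenzyme A, the reverse of the step that acyl-CoA synthetases catalyse. The mouse enzymes work in separate compartments: Acot1 in the cytosol, Acot2 and Acot9 in mitochondria, and Acot3, Acot4, Acot5 and Acot8 in peroxisomes. Acot1 to Acot6 form a gene cluster and belong to the type I enzymes, which share an alpha/beta-hydrolase fold. The others listed here are type II enzymes built on hotdog-fold domains. Acot11, also named Them1 or brown-fat-inducible thioesterase, is known for its induction by cold in mouse brown fat, and Acot13 (Them2) is a small long-chain thioesterase associated with mitochondria.

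The 5 listed genes of the cluster, with Acot6, lie on the plus strand of chromosome 12, between positions 83987861 (start of Acot2) and 84111349 (end of Acot6) of the GRCm38 annotation (GENCODE M21). Their transcripts share long stretches, which bears on the counts of these genes. Outside the cluster, Acot11 lies at chr4:106744555-106804998 (minus strand), Acot13 at chr13:24817948-24831540 (minus), Acot12 at chr13:91741512-91786148 (plus), Acot8 at chr2:164792765-164804882 (minus) and Acot9 at chrX:155262443-155297654 (plus). Over 1239 aligned coding bases without gaps, Acot1 and Acot2 differed at 59 positions, an identity of 95.2%. The Acot2 coding sequence begins with 123 bases that Acot1 lacks; in Acot2 the first part of the protein directs it to mitochondria. These sequences are shown because they mark where reads of the cytosolic and the mitochondrial enzyme can be told apart and where they cannot. The first is the extra coding start of Acot2 (chr12:83987902-83988024, plus strand, GRCm38).
Acot2 extra start: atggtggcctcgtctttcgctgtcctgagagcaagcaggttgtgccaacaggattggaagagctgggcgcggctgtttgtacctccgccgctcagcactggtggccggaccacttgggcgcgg
The next pair is the stretch of 60 coding bases with the most differences, at coding positions 823 to 882 of Acot1 (chr12:84016942-84017001) and 946 to 1005 of Acot2 (chr12:83992664-83992723); the 13 capitals mark the positions that differ.
Acot1 window: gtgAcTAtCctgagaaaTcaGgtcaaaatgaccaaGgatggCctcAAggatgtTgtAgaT
Acot2 window: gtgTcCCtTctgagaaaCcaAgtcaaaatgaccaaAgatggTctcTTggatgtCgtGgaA
The longest run that both genes share follows 4 bases further on: 273 identical bases, at chr12:84017006-84017278 in Acot1 and chr12:83992728-83993000 in Acot2.
Acot1 and Acot2 shared run: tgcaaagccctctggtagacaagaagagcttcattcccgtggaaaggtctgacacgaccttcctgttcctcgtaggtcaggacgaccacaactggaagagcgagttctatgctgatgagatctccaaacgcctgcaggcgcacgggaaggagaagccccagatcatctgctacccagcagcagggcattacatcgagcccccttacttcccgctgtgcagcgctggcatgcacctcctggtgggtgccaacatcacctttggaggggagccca

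A read that lies inside such a shared run cannot be placed on one gene. Of all words of 50 bases in the longest coding transcript of each gene, 33.6% of those of Acot1 and 27.7% of those of Acot2 also occurred in transcripts of another gene. The share was 22.8% for Acot5, 19.5% for Acot3 and 4.87% for Acot4. For words of 100 bases it fell to 21.9% in Acot1 and 17.1% in Acot2, and in Acot2 all of these were shared with Acot1. Acot9 shared 20.2% of its words of 50 bases with Acot10, a gene on chromosome 15, but 0.968% of those of 100 bases. Acot8, Acot11, Acot12 and Acot13 shared 0 words at either length. The read length and the treatment of reads with several matches are not stated in the labels. Counts of the chromosome 12 genes and of Acot9 are therefore uncertain, and the shares of words do not give the size of this uncertainty.

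**Figure D1:**
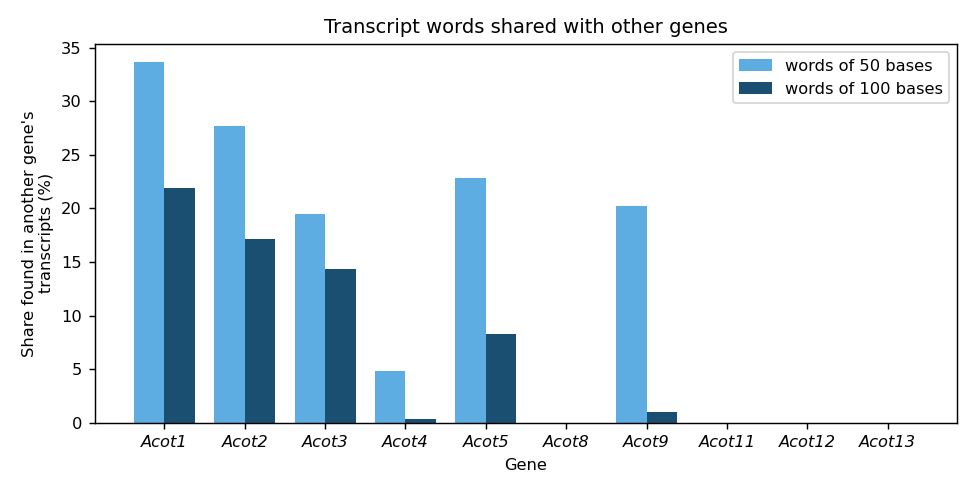
Share of the words of 50 and of 100 bases (colours) in the longest coding transcript of each thioesterase gene that also occur in transcripts of another gene, in percent. Acot1 has the tallest bars at 33.6% and 21.9%, and Acot8, Acot11, Acot12 and Acot13 have none.

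The libraries held between 15460829 and 17909534 counts, so 3 counts corresponded to between 0.168 and 0.194 counts per 1000000 of the column sum (CPM). All 10 brown adipocyte markers were measured at a median of at least 1 CPM, and their summed level, which includes Ucp1 itself, ran from 9949 CPM in library D to 13240 in library C. Without Ucp1 the other 9 markers summed to between 7245 CPM in library D and 10403 in library A. The level of Ucp1 ranged from 396 CPM in library E to 4620 in C, with a median of 2704. Transcripts of the mitochondrial genome took between 22.3% and 33.9% of the counts. Skeletal muscle markers (10 of 10 at a median of at least 1 CPM) summed to 228 CPM in library C and 4496 CPM in library F, and Alb, the defining hepatocyte marker, lay between 1.80 and 32.1 CPM. The endothelial markers summed to between 412 and 645 CPM, the fibroblast markers to between 150 and 350, the white adipocyte markers to between 36.5 and 127, and the leukocyte markers to between 29.2 and 88.3. In bulk tissue, fewer cells of a type and less RNA per cell cannot be told apart.

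Acot11 gave most of the thioesterase counts in each library. Its level was 540 CPM in the lowest library (B), 937 at the median and 1534 in the highest (A), from 9034 to 27194 counts. Libraries A, H and E were the highest, from 1153 to 1534 CPM, and libraries B, J and C the lowest, from 540 to 698. Per kilobase of its transcript of 5689 bases, the level was 165 CPM per kb at the median; the highest library reached 270. The highest library held 2.84 times the level of the lowest, while counting error alone gives a coefficient of variation of 0.789%.

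Acot13 varied little between libraries. It was measured at 63.5 CPM in library E, 76.3 at the median and 90.7 in library C, a highest-to-lowest ratio of 1.43. Libraries D, E and G lay together at the low end, between 63.5 and 63.7 CPM. Because its transcript has only 721 bases, its level per kilobase was second of the 10 genes, at a median of 106 CPM per kb. Per kilobase the ranges of Acot11 and Acot13 overlapped, and Acot11 was the higher in 6 of 9 libraries. Per kilobase of coding sequence Acot11 exceeded Acot13 in all 9 libraries, at medians of 525 and 180 CPM per coding kb.

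The mitochondrial genes differed in their spread. Acot2, a matrix enzyme for long-chain acyl-CoA, ranged from 57.8 CPM in library D through a median of 78.6 to 223 in library E, which is 3.86-fold. Its 4 highest libraries were E, A, G and H, between 123 and 223 CPM, and the other five lay between 57.8 and 78.6 CPM. Acot9, a further mitochondrial acyl-CoA thioesterase, lay between 24.9 CPM in library B and 41.1 in library H, with a median of 30.9. Its highest-to-lowest ratio was 1.65. Per kilobase Acot2 stood above Acot9 in all 9 libraries and their ranges did not meet, at medians of 35.8 and 17.6 CPM per kb.

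Acot1, the cytosolic long-chain enzyme next to Acot2 in the genome, was found at 10.5 CPM in library F, 17.8 at the median and 36.8 in library A. Its 4 highest libraries were A, J, B and E, of which A and E were also among the 4 highest in Acot2. Library E (17.9 CPM) lay close to the next library, G (17.8 CPM). The 3.51-fold range became 2.71-fold without library F and 2.95-fold without library A. Library F had the largest sum of muscle markers, and the part of muscle RNA in this range was not tested.

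Among the peroxisomal genes, Acot4 and Acot8 were well measured and Acot3 and Acot5 barely so. Acot4, which in the mouse prefers succinyl-CoA, ranged from 11.2 CPM in library C through 20.4 at the median to 42.5 in library E. Acot8, an enzyme of broad chain-length range, was found at 9.44 CPM in library F, 13.1 at the median and 25.3 in library A. Libraries A and G held the most Acot8, and E and A the most Acot4. Acot5, a medium-chain enzyme, had 1 to 29 counts per library (median 6), and Acot3, a long-chain enzyme, 2 to 19 (median 9). Their medians of 0.335 and 0.526 CPM lie above the level of 3 counts, but so few counts and the words shared with neighbouring genes give no usable order between them. Gm49366, an annotated gene whose transcripts hold 11.2% of the Acot3 words of 50 bases, had 0 counts in all 9 libraries.

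Acot12, a cytosolic acetyl-CoA thioesterase known from liver, was low. It had 15 counts in library F, 70 at the median and 159 in library A, which is 0.970, 4.24 and 8.97 CPM. Its range of 9.24-fold was the widest among the 8 genes with a median of at least 1 CPM and depended on both end libraries. It was 4.14-fold without library F and 5.62-fold without library A. The sum of the hepatocyte markers, of which 1 of 4 had a median of at least 1 CPM, was 4.51 CPM in library A and 32.6 in library F, with its highest value, 37.3, in library H and its lowest, 2.35, in library C.

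**Figure D2:**
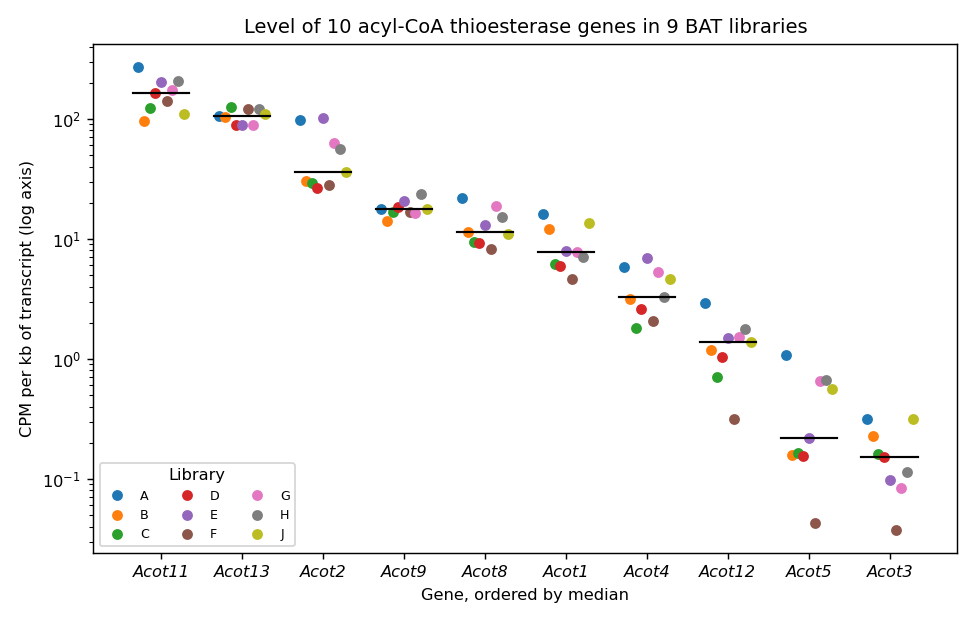
Level of each thioesterase gene in CPM per kilobase of its longest coding transcript (log axis); each point is 1 library, coloured by its letter, and the bar is the median. Acot11 and Acot13 lie at the top with medians of 165 and 106, and Acot5 and Acot3 at the bottom with 0.221 and 0.153.

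The order of the levels per kilobase, from the medians, was Acot11, Acot13, Acot2, Acot9, Acot8, Acot1, Acot4 and Acot12, followed by Acot5 and Acot3, whose counts are too few to order. The step between Acot2 and Acot9 was the only one at which the ranges of neighbours did not overlap. Within single libraries Acot2 exceeded Acot9, Acot1 exceeded Acot4, Acot4 exceeded Acot12 and Acot12 exceeded Acot5 in 9 of 9. The other steps held in fewer. Acot13 exceeded Acot2 in 8, Acot9 exceeded Acot8 in 7, Acot8 exceeded Acot1 in 7 and Acot11 exceeded Acot13 in 6. The order of Acot8, Acot1 and Acot4 depended on the length used, as did that of Acot5 and Acot3. The annotated Acot4 transcript of 6203 bases is long beside its coding length of 1266, and per coding kilobase Acot4 stood above Acot1 in 5 of 9 libraries, with medians of 16.1 and 14.1 CPM per coding kb.

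The sum of the 10 genes was 771 CPM in library B, 1135 at the median and 1968 in library A, a 2.55-fold range. Without Acot11 the other genes summed to between 198 and 434 CPM. In shares of the sum per kilobase, Acot11 took a median of 45.8% (35.1% to 52.0%), Acot13 27.9% (19.6% to 40.2%) and Acot2 11.7% (8.31% to 23.0%). Acot13 had its largest share in library C and its smallest in A, and Acot2 had its largest in E. The chromosome 12 genes together made up 16.9% at the median, from 10.8% in library F to 26.4% in library E. The peroxisomal genes made up 4.56%, from 3.23% to 6.64%.

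Counted as plain reads with no length, Acot11 took between 70.0% and 82.6% of the family's counts. Its share was 70.0% (95% Wilson interval 69.3% to 70.8%) in library J and 82.6% (82.0% to 83.1%) in library D, so these libraries differed by more than counting error. The share of Acot13 in the same counts was 3.88% (3.68% to 4.09%) in library A and 9.85% (9.38% to 10.3%) in library C. These intervals cover counting error only.

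**Figure D3:**
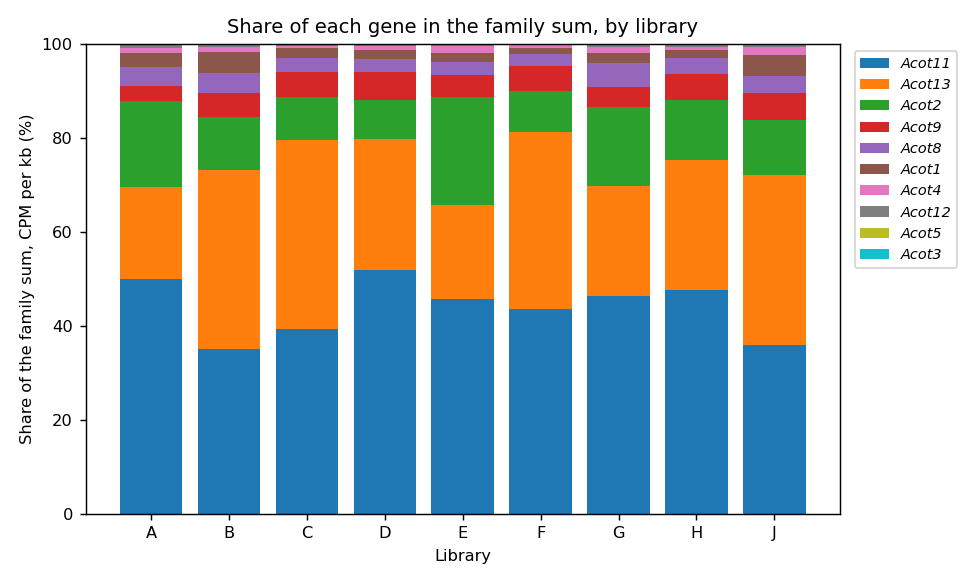
Share of each gene in the family sum of CPM per kilobase, in percent, for each of the 9 libraries (stacked bars). Acot11 fills 35.1% to 52.0% of each bar, and the Acot2 band is widest in library E at 23.0%.

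Within the chromosome 12 cluster the proportions moved between libraries. Library E held 12.5 counts of Acot2 for each count of Acot1, library B held 2.43, and the median was 5.85. The ratio spanned 5.15-fold with library E and 3.19-fold without it. The ratio of Acot4 to Acot1 counts ranged from 0.709 in library B to 2.38 in library E. Acot2 and Acot4 kept closer together, with between 2.75 counts of Acot2 for 1 of Acot4 in library J and 6.02 in library H, a 2.19-fold span. The part that reads common to Acot1 and Acot2 have in these ratios was not tested.

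**Figure D4:**
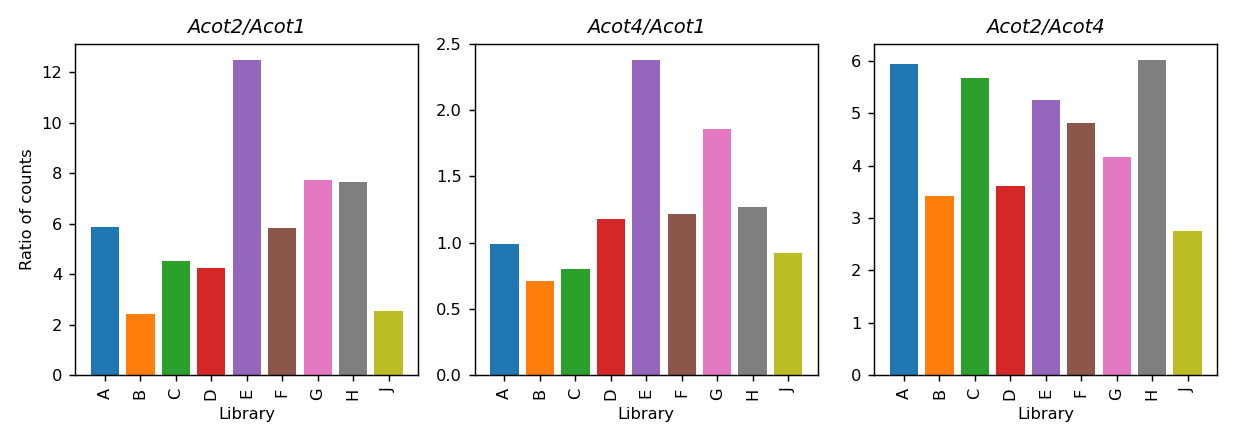
Ratio of counts between 3 pairs of chromosome 12 genes in each library (bars from 0; each panel has its own axis). Acot2/Acot1 reaches 12.5 in library E and 2.43 in library B, while Acot2/Acot4 stays between 2.75 and 6.02.

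The listed genes varied more between libraries than most genes did. Of the 10 genes, 8 had a median of at least 1 CPM; the median of their coefficients of variation was 39.7%, against 17.3% over all 12138 genes above that level. Since both guides are in the spread, this is a description and not a measure of replicate error. Acot2 had a coefficient of variation of 58.0%, higher than 97.3% of those genes, and Acot12 had 53.8%, Acot4 45.4%, Acot1 43.7%, Acot8 35.6% and Acot11 33.6%. Acot9, with a highest-to-lowest ratio of 1.65, and Acot13, with a coefficient of 14.2%, lay below that median of 17.3%. Among the 7454 genes with a median of at least 10 CPM, where both belong, the median coefficient was 14.18%, with Acot13 (14.25%) and Acot9 (14.99%) just above it. The coefficient that counting error alone gives was 2.25% for Acot2, 6.21% for Acot8 and 11.8% for Acot12.

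**Figure D5:**
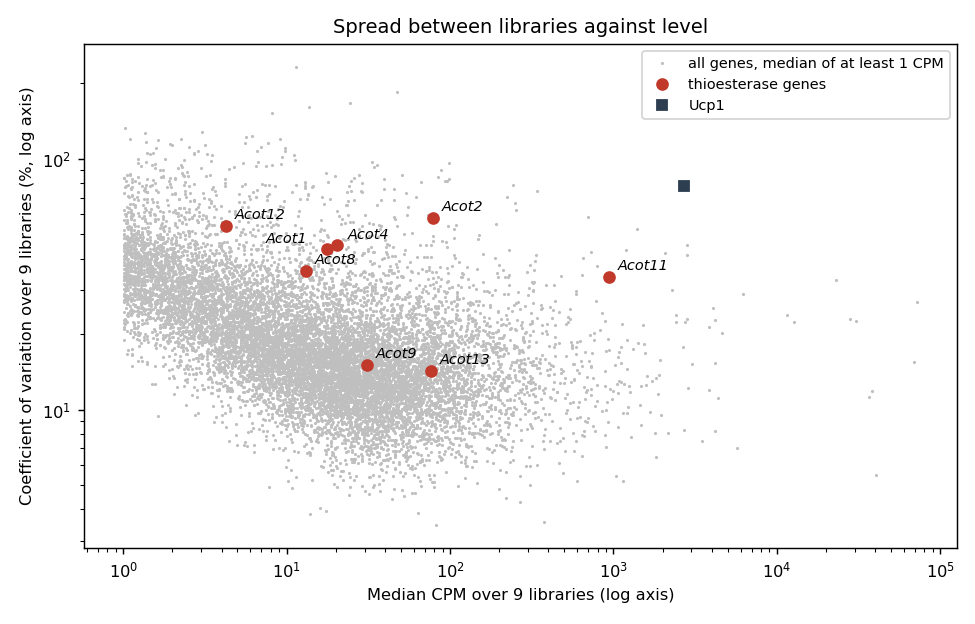
Coefficient of variation over the 9 libraries against the median CPM (both log axes) for all 12138 genes with a median of at least 1 CPM (grey), 8 thioesterase genes (red) and Ucp1 (square). Acot2 at 58.0% and Acot11 at 33.6% exceed the median of 17.3% over all these genes; Acot9 and Acot13 lie below it.

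Library A held the highest level of Acot1, Acot5, Acot8, Acot11 and Acot12, and library F the lowest of Acot1, Acot3, Acot5, Acot8 and Acot12. Acot3 and Acot5 had few counts. How many of all genes were highest in A or lowest in F was not counted, so whether this is particular to the family cannot be said. Library F had the largest sum of muscle markers and library C the smallest. Library C held the lowest Acot4 (11.2 CPM) and the highest Acot13 (90.7 CPM), and library F lay near it in both genes (12.7 and 87.4 CPM). Library A had the smallest share of mitochondrial genome transcripts (22.3%) and F the largest (33.9%). When counts were scaled to the column sum without Ucp1 and the mitochondrial genome, the spread of Acot1 was 2.97-fold in place of 3.51-fold and that of Acot11 2.41-fold in place of 2.84-fold, while that of Acot13 was 1.55-fold in place of 1.43-fold and that of Acot9 1.45-fold in place of 1.65-fold. Which of Acot13 and Acot9 varied least thus changed with the scaling.

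A rank correlation of the thioesterase genes with Ucp1 could not be tested. Ucp1 fell into separate clusters, with 5 libraries between 2704 and 4620 CPM and 4 between 396 and 606, and neither cluster has the 6 libraries that a correlation would need. No correlation between the thioesterase genes was tested either. As a description, the 4 libraries lowest in Ucp1 (A, E, G and H) were the 4 highest in Acot2, Acot8, Acot11 and Acot12, which are 4 of the 8 genes with a median of at least 1 CPM, and in the sum of the family. They were the 4 highest in 10.3% of the 12137 genes above that level other than Ucp1. They were not the 4 highest in Acot1, Acot4, Acot9 or Acot13. The count depended on the scaling: it was 3 of 8, without Acot11, with TMM and with median-of-ratios factors, where the share of all genes was 5.25% and 5.43%. It was 2 of 8, Acot2 and Acot8, when Ucp1 and the mitochondrial genome were left out of the column sum, where the share was 3.24%. The same 4 libraries had the lowest shares of mitochondrial genome transcripts, from 22.3% to 26.5%, against 31.5% to 33.9% in the others, and the part of this difference in the levels of the 4 genes was not tested.

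As a description with no test, the genes whose pattern was most like that of each thioesterase gene were found by Pearson's r of log2(CPM + 1) over the 9 libraries, among 7453 other genes with a median of at least 10 CPM. The part of the split in Ucp1 in these values was not tested. Nearest to Acot11 were Ergic1 (r = 0.97), Cox19 (0.96) and Ank (0.96); Cox19 is a factor for cytochrome c oxidase assembly and Ank a membrane protein of pyrophosphate export. Nearest to Acot2 were Lonp1, a protease of the mitochondrial matrix (r = 0.98), Ncoa1, a nuclear receptor coactivator (0.98), and Aars, the cytosolic alanyl-tRNA synthetase (0.98). Among the genes most like Acot4 were Tollip (0.98) and Bhlhb9 (0.98), and Acot8 was followed most closely by Tmem63b (0.99), Chmp1a (0.98) and Lrfn3 (0.98).

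The remaining genes had other neighbours. Acot1 was most like Oplah (0.95), the 5-oxoprolinase of glutathione turnover, Sidt2 (0.95) and Wdr36 (0.94), and Acot9 most like Gbe1 (0.92), the glycogen branching enzyme, Ywhaq (0.90) and Rap2c (0.88). Acot13 was most like Rps29 (0.99), Uqcrh (0.98) and Rps3a1 (0.96), which encode ribosomal proteins and a complex III subunit. These transcripts are short, as Acot13 is: 390, 547 and 977 bases against 721, where the median of 7358 coding genes at this level was 3346 bases. Among the thioesterase genes themselves, Acot4 stood at place 423 in the list of Acot2 of 7453 genes (r = 0.86), and Acot1, its nearest neighbour in sequence, at place 3497 (r = 0.41).

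The rest of the thioesterases were measured from a second list. Of its 12 genes, 8 had a median of at least 1 CPM, and the list summed to between 205 and 261 CPM. The highest in CPM, without length, was Lypla1, an acyl-protein thioesterase, with 57.6 to 102. It was followed by Lypla2 with 44.4 to 66.2 and the lysosomal Ppt1 with 34.6 to 44.7. Per kilobase Lypla2 stood above Lypla1, at medians of 36.7 and 28.1 CPM per kb. Acot6, the last gene of the chromosome 12 cluster, lay between 3.10 CPM in library F and 9.25 in library A. Acot7, a cytosolic enzyme known mainly from brain, stayed between 10.9 and 15.8 CPM. Acot10, which shares words with Acot9, had at most 3 counts in a library.

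The counts of enzymes that make acyl-CoA were also read from a list. The acyl-CoA synthetase list (12 of 13 genes at a median of at least 1 CPM) summed to between 4584 and 6649 CPM. Per kilobase, Acsl1, a long-chain acyl-CoA synthetase abundant in fat, had a median of 777 CPM per kb against the 165 of Acot11. Acsl5 ranged from 420 to 1124 CPM and Acss2, which activates acetate, from 212 to 581. The list of fatty acid oxidation genes known as PPAR targets summed to between 15852 and 19547 CPM. In it, 24 of 26 genes had a median of at least 1 CPM. Highest in CPM, without length, were Hadha with 2498 to 3588, Hadhb with 1661 to 2554 and Acadl with 1776 to 2518. Per kilobase the order differed, with medians of 983 CPM per kb for Acadl, 925 for Hadhb, 838 for Acadm and 715 for Hadha. The median coefficient of variation was 18.6% in the oxidation list and 18.4% in the synthetases. It was 39.7% for the 8 chosen thioesterase genes with a median of at least 1 CPM. The second list of thioesterases had a median coefficient of 14.95%, below the 17.3% of all genes. Neither list lay wholly on one side of that value. In the second list Acot6, Them4, Them6 and Lypla1 lay above 17.3%, and Acot7, Ppt1, Ppt2 and Lypla2 below it. Of the chosen genes, Acot9 and Acot13 lay below it. Members and lists were chosen with earlier results of these data known, so the contrast describes these lists only and not thioesterases as a whole. The acyl-CoA handling list (12 of 12 genes) summed to between 2947 and 3807 CPM, led by Crat, the carnitine acetyltransferase, with 950 to 1399, Dbi, the acyl-CoA binding protein, with 760 to 1083, and Pank1, a pantothenate kinase of coenzyme A synthesis, with 290 to 487.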

How the data were processed

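RNA of 9 brown adipose tissue samples was sequenced. The deposited table holds raw whole-number counts per Ensembl gene. Per the submitters' processing notes, the build was GRCm39 and the tools included STAR, FastQC and DESeq2, with no version or role; which annotation, strand setting and counting mode the authors used is not given in the sources used here. All 9 columns were used, as libraries of the tissue; 0 name a guide.

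Symbols came from a reference table of Ensembl identifiers (matched: 52083 of 55416 identifiers, 99.8% of counts). Counts were divided by the column sum to give CPM; shares and levels between genes used the longest protein-coding GENCODE M21 transcript (GRCm38). No 2 libraries agreed within sampling noise (chi-square per degree of freedom at least 10.9). Planned rank correlations were not run: Ucp1 showed a gap over 50% of its log2 range with at least 2 libraries on each side. Alternatives used edgeR 4.0.16 TMM factors, DESeq2 1.42.0 size factors, another denominator, each library left out, and other lengths; scripts were checked on simulated data (Python 3.11.15, R 4.3.3). Named genes were the 10 thioesterase genes, the 3 most alike per gene (1 is not reported here), and the 3 highest of each pathway list; a few others were named after their values were seen. Members and lists were chosen with earlier results of these data known.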

Additional observations from a re-analysis of the deposited data

Results flagged for a closer look

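The ratio of Acot11 to Acot9 counts was 49.6 in library A, and its distance to the next library was large beside the range of all 9 (median 28.8, lowest 20.2 in library J). Of 28 sets of levels, shares and ratios examined for 1 library far from the others, this was the 1 that stood out; chance gives about 1 in 20.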

How the results depend on the processing

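The summed level of the 10 genes, 1135 CPM at the median, was 1706 when Ucp1 and the mitochondrial genome were left out of the denominator, because that denominator is smaller. It was 1251 with TMM factors, 1242 with median-of-ratios factors and 1070 to 1218 when each library was left out in turn. The highest-to-lowest ratio of Acot2 moved from 3.86 to 3.51 and 3.49 under those factors. With no length, the share of Acot11 in the family was 76.3% at the median, and per coding kilobase, a setting chosen after seeing the data, it was 61.3%, against 45.8% per transcript kilobase. The span of Acot2/Acot1 without each library, the highest libraries under other scalings and the marker sum without Ucp1 were also chosen after seeing the data. Acot3 and Acot5 are limited by depth. Other settings for correlations with Ucp1 were not run, since no correlation was given. No paired analysis was possible because the libraries carry no guide or replicate number.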

Other observations

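The Ucp1 levels of the libraries fall into separate clusters. They were 459 CPM in library A, 3848 in B, 4620 in C, 2704 in D, 396 in E, 3652 in F, 606 in G, 445 in H and 3937 in J.

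Fgf21, a hormone gene of the fatty acid oxidation list, had 1 count in library B and 324 counts (18.1 CPM) in library E, where Acot2 and Acot4 were also highest; it was named after its values were seen.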
